A study of Mus musculus with 2 samples.

Results

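Of 16092 mouse genes that were well above background on all 4 arrays of a hypothalamus study, 82 (0.51%) had a lower signal at ZT22 than at ZT10 both in mice on control feed and in mice given bezafibrate. ZT is zeitgeber time, counted in hours from lights on. A gene was taken when its scaled signal was at least 1.5-fold lower at ZT22 than at ZT10 in each diet. Each gene stood for its brightest probe under the gene name in the files, and 21790 named genes had a measured probe. The 82 genes were thus chosen by their ZT22 against ZT10 values, which are given as a description with no test. Of the 16092 genes, 309 (1.92%) were 1.5-fold lower at ZT22 in the control pools, 236 (1.47%) in the bezafibrate pools, and 47 (0.292%) were higher by that much in both diets.

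The study held 4 pools, each of RNA from 4 mice and each read on 1 one-colour array of the same slide: control at ZT10, control at ZT22, bezafibrate at ZT10 and bezafibrate at ZT22. Bezafibrate is a lipid-lowering fibrate that activates the peroxisome proliferator-activated receptors. The mice were 8 weeks old when a schedule of 2 weeks on normal feed, 2 weeks with 0.5% bezafibrate in the feed and 5 weeks back on normal feed began, and the labels do not settle at which stage of it the tissue was taken. The strain, the sex, the genotype and the feed of the control mice beyond its name are not given in the sources used here. The dissected block held the hypothalamus and may have held neighbouring tissue. A block was taken at each ZT from other mice, and 1 pool per group leaves the spread between mice and between pools unknown.

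The hypothalamus governs feeding, body temperature, sleep and hormone release, and its suprachiasmatic nucleus drives the daily rhythms of the body. At ZT10 a mouse is near the end of its resting phase, and at ZT22 near the end of its active phase. Messenger RNAs with a daily rhythm rise and fall through the clock proteins, through feeding, temperature and hormones, and through changes in how fast an RNA is made, processed and degraded. Besides messenger RNAs, a brain extract holds long noncoding RNAs and RNA with introns not yet removed, and many cDNA clones of the RIKEN mouse collection stem from such transcripts.

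The arrays were alike in brightness. The share of features well above background was 74.6% in control at ZT10, 68.7% in bezafibrate at ZT10, 70.4% in control at ZT22 and 70.6% in bezafibrate at ZT22, so it did not follow the time of day. The ZT22 pools lay at positions 1 and 3 of the slide and the ZT10 pools at 2 and 4, and the part of the position was not tested. The 75th percentile of the signal, to which each array was scaled, was 1010, 1050, 1010 and 893 units in the same order. Hypothalamic peptides were bright, with mean signals of 69625 units for Hcrt (orexin), 58075 for Pmch (melanin-concentrating hormone) and 12205 for Pomc. Marker lists of neighbouring tissue moved with time in the bezafibrate pools: the median log2 difference, ZT22 minus ZT10, of 12 choroid plexus markers was 0.94 there and 0.18 in control, and that of 16 fibroblast and meninges markers was 0.57 and 0.32. The median of 11 anterior pituitary markers was -0.20 in control and 0.47 in bezafibrate, and that of 14 striatum markers -0.19 and 0.31. The part of these differences in the values below was not tested, and no marker of these 4 lists was among the 82 genes.

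The 82 genes were dim, and most of them were read through a cDNA clone. Their mean signal over the arrays had a median of 58.5 units and ran from 19.6 to 530.2, while the median of all 16092 genes was 915 units. For 59 of the 82 (72.0%) it was under 100 units, against 18.1% of all genes. The median signal of the 82 was 71.2 units in control at ZT10, 35.5 in control at ZT22, 74.2 in bezafibrate at ZT10 and 37.9 in bezafibrate at ZT22. Signals in units, here and below, are not scaled between arrays. On the scaled signal, the median log2 difference of the 82 between diets, bezafibrate minus control, was 0.04 at ZT10 and 0.27 at ZT22. The log2 difference, ZT22 minus ZT10, had a median of -0.99 in control (range -2.12 to -0.59) and -0.82 in bezafibrate (range -1.91 to -0.59), with medians of 0.03 and 0.04 over all genes. The error of such a difference, combined from the scanner software's error of each spot, was 0.20 to 0.37 for these genes in control and 0.20 to 0.35 in bezafibrate, and it holds no spread between mice. In RNA from a whole block of tissue, fewer cells of a type and less RNA per cell cannot be told apart.

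**Figure D1:**
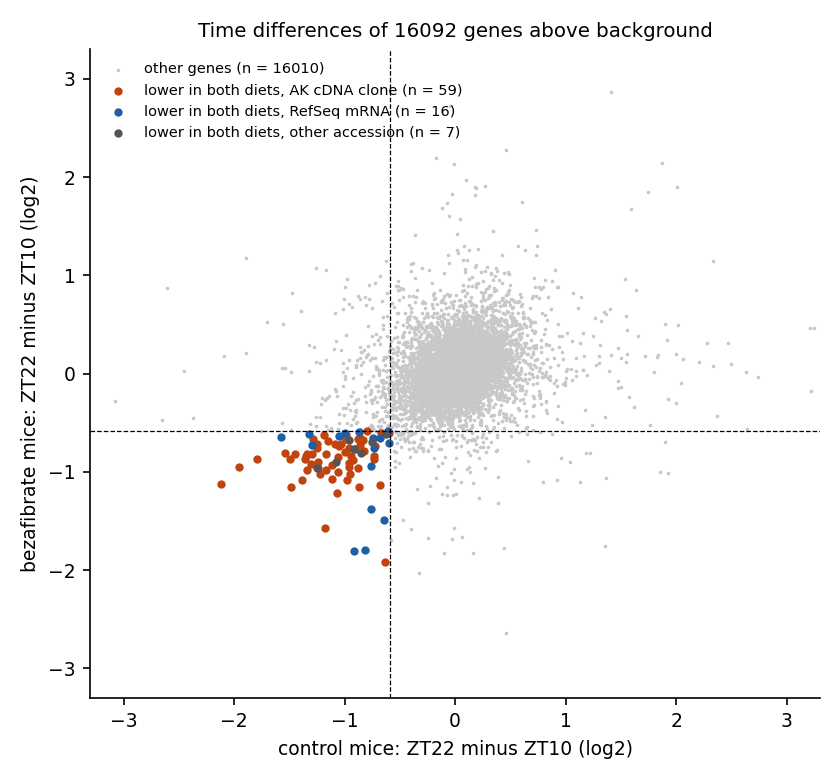
Each point is a gene above background on all 4 arrays, with the log2 difference ZT22 minus ZT10 in control mice on the horizontal axis and in bezafibrate mice on the vertical axis, in log2 units; 9 genes lie outside the axes. The 82 genes lower by 1.5-fold in both diets fill the lower left corner, marked by the kind of sequence their probe was designed on, and clones with an AK accession make up 59 of them.

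A probe on these arrays carries the accession of the sequence it was designed on, which the choice of the genes did not use. For 59 of the 82 genes (72.0%) that was a full-length cDNA clone with an AK accession, against 1793 of all 16092 genes (11.1%). A RefSeq messenger RNA was the source for 16 of the 82 (19.5%), against 77.9% of all genes, and another kind of sequence for 7 (0.396% of the genes read through such a sequence). Among the 47 genes higher at ZT22 in both diets, AK clones were 4 (8.51%) and RefSeq messenger RNAs 37 (78.7%), near the shares among all genes. Read the other way, 3.29% of the genes measured through an AK clone were among the 82, and 0.128% of those measured through a RefSeq messenger RNA. The names followed the clones: 55 of the 82 (67.1%) bore a RIKEN clone name, against 20.7% of all genes. The current RefSeq gene table matched 16 of the 82 by accession (19.5%, against 75.7% of all genes), 9 by symbol and 11 by an older symbol. It did not match 46 at all (56.1%, against 4.95% of all genes). Of the 82, 29 were protein coding there (35.4%, against 92.3% of all genes) and 5 were long noncoding RNAs (6.1%, against 2.21%). Of the 59 genes read through an AK clone, 71.2% were not matched and 6.78% were long noncoding RNAs. Among all genes read through an AK clone these shares were 20.0% and 12.7%.

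Probes without a gene name in the files had no part in choosing the 82 genes, and a minority of the AK clones among them were lower at ZT22 too. Of 991 unnamed AK clone probes above background on all arrays, 112 (11.3%) were 1.5-fold lower at ZT22 in both diets and 0 were 1.5-fold higher in both. Of 101 unnamed RefSeq messenger RNA probes 0 were lower in both diets and 1 (0.99%) was higher, and of 1365 unnamed probes of other kinds 21 (1.54%) were lower. Among all probes with a gene name, 117 of 3396 AK clone probes (3.45%) and 27 of 18570 RefSeq messenger RNA probes (0.145%) were lower in both diets, and 13 of 2758 probes of other kinds (0.471%). Clones with no gene name thus held a larger share of lower signals than clones with one.

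Brightness differed between these kinds of probe, so the shares were also taken within ranges of mean signal. Between 30 and 100 units, 7.62% of the named AK clone probes, 16.6% of the unnamed AK clone probes and 0.398% of the named RefSeq messenger RNA probes were lower in both diets. Between 100 and 300 units the shares were 2.60%, 9.09% and 0.332%. Above 1000 units they were 0%, 0.893% and 0%. At like brightness the clones therefore held the larger share, and in clones and messenger RNAs alike the share was smallest in the brightest range. Between 30 and 100 units the median log2 difference of the unnamed AK clone probes was -0.34 in control and -0.24 in bezafibrate, that of the named ones -0.11 and -0.07, and that of the RefSeq messenger RNA probes -0.01 and 0.02.

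**Figure D2:**
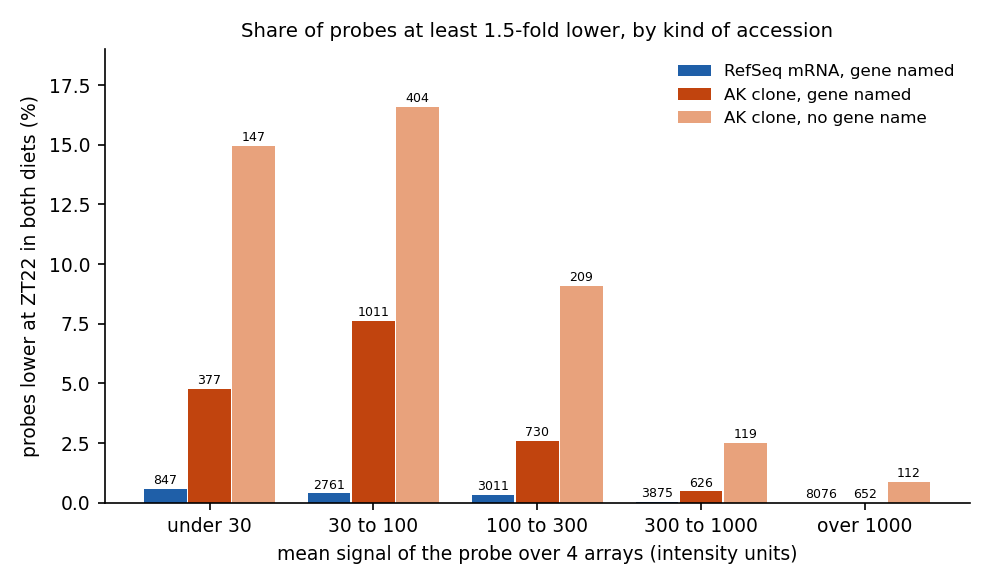
The vertical axis is the share, in percent, of probes 1.5-fold lower at ZT22 in both diets, by range of mean signal in units on the horizontal axis, for AK clone probes with and without a gene name and for named RefSeq messenger RNA probes. In every range the unnamed AK clones stand highest, at 16.6% between 30 and 100 units, and the RefSeq messenger RNAs stay under 0.6%.

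Only 8 of the 82 genes were 2-fold lower in both diets (0.0497% of all genes), and each was read through an AK clone. The clone 8030445P17Rik (AK035954) read 97.9 units in control at ZT10, 43.2 in control at ZT22, 121 in bezafibrate at ZT10 and 34.6 in bezafibrate at ZT22. Both ZT22 pools lay below both ZT10 pools, and the log2 difference was -1.18 ± 0.24 (scanner error, 1 pool at each time) in control and -1.57 ± 0.25 in bezafibrate. The clone D9Ertd115e (AK084291) read 58.8, 21.0, 55.1 and 21.0 units in the same order, with differences of -1.49 ± 0.29 and -1.16 ± 0.28. On the scaled signal, bezafibrate minus control was -0.15 ± 0.23 at ZT10 and 0.18 ± 0.33 at ZT22 for this clone. D030028A08Rik (AK050871), a long noncoding RNA gene, read 53.1, 12.2, 50 and 19.5 units. Its difference in control, -2.12 ± 0.35, was the lowest of the 82 genes, and that in bezafibrate was -1.12 ± 0.26.

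The other genes of that group showed the same order of pools, which the choice of the genes all but fixed. The clone 5230400M03Rik (AK030345) read 70.2, 26.9, 67.0 and 26.9 units, in the order control ZT10, control ZT22, bezafibrate ZT10 and bezafibrate ZT22, with differences of -1.38 and -1.08. D130095D21Rik (AK084110) read 62.4, 28.9, 67.2 and 27.1 units, with differences of -1.11 and -1.08. E030037J05Rik (AK053112), a clone name that RefSeq lists under Tns1, the gene of the focal adhesion protein tensin, read 57.0, 27.2, 59.7 and 21.9 units, with differences of -1.07 and -1.21. In each of these clones the ZT22 pools were at less than 28 units wherever the ZT10 pools were between 57 and 71, apart from 28.9 units of D130095D21Rik in control. The brightest clone of the group, 1700027A13Rik (AK046833), read 110, 47.2, 119 and 49.8 units, with differences of -1.22 and -1.02. C130079B09Rik (AK048576) read 64.9, 31.2, 59.5 and 25.2 units, with differences of -1.06 and -1.01. The next clones by the smaller of both differences, 9630021D06Rik and A830054O04Rik, both reached -0.98 in bezafibrate and were at -1.34 and -1.17 in control.

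**Figure D3:**
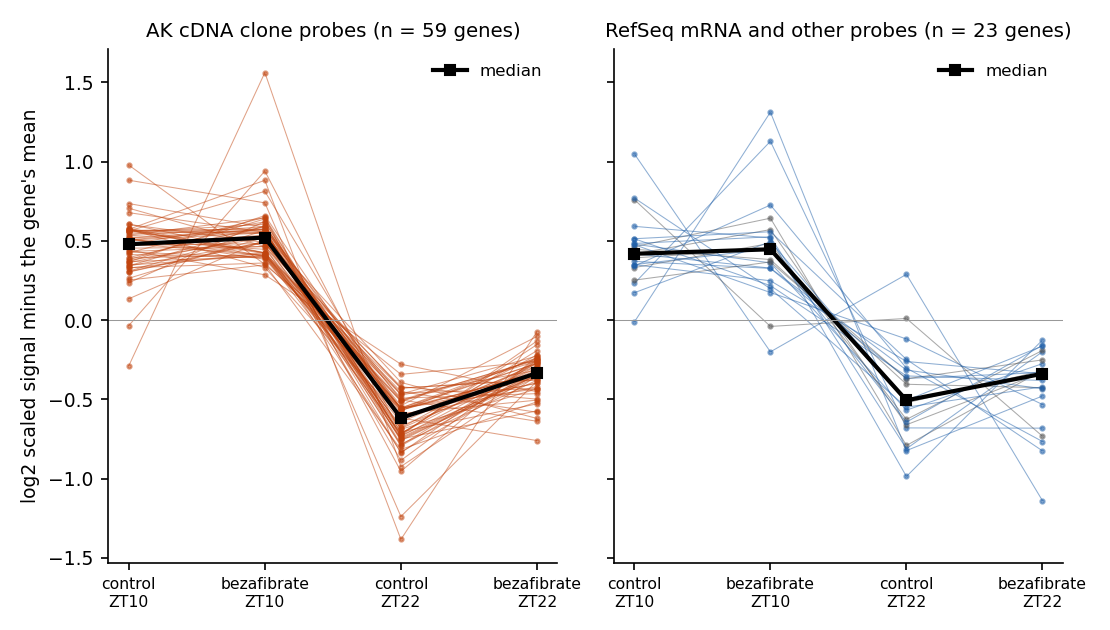
The vertical axis is the log2 scaled signal of a gene minus its own mean over the 4 arrays, which stand on the horizontal axis, with a thin line per gene and a black line for the median; the left panel holds the 59 genes read through an AK clone and the right panel the 23 others. The medians of both panels step down between ZT10 and ZT22, as the choice of the genes requires. In 80 of the 82 genes both ZT10 pools stand above both ZT22 pools, against 19.4% of all genes, an order that the choice all but fixed.

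For 12 of the 82 genes the arrays held a further probe above background under the same name. Of these 12 probes 2 were 1.5-fold lower in both diets, against 75 of the 8632 further probes of all genes (0.869%), and their median difference was -0.20 in control and -0.14 in bezafibrate. The probes that were lower too belonged to the clone E330037M01Rik (-1.26 and -0.97) and to Xdh (-1.14 and -0.86). The other 10 were not 1.5-fold lower in both diets, whether they were messenger RNA probes (6) or themselves AK clone probes (4). The AK clone probes were those of 2900027M19Rik (-0.10 and -0.17), D230015J17Rik (-0.17 and -0.48), 5930436O19Rik (-0.49 and -0.25) and Slc35d2, a nucleotide sugar transporter (0.21 and 0.08). The Slc35d2 probe carried the same accession as the probe that was chosen, at -0.80 and -0.59. The messenger RNA probe of Mical3, an actin-binding monooxygenase, was at -0.23 and -0.12 where its clone probe was at -1.06 and -0.85. That of Angptl2, a secreted angiopoietin-like protein, was at -0.85 in control but 0.12 in bezafibrate, where its clone probe was at -0.86 and -0.66. That of Dna2l (now Dna2, a DNA replication nuclease) was at 0.03 and -0.25. The messenger RNA probe under the name C230004F18Rik, now the long noncoding RNA Cdr1os, was higher at ZT22, at 0.60 in control and 0.44 in bezafibrate, while the clone probe was at -0.67 and -0.61. The messenger RNA probe under the name 9530091C08Rik was at -0.01 and -0.09, and its clone probe was at -1.25 and -0.76.

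For some genes among the 82 the files held a probe under the current RefSeq name of the gene (Tns1, Tnik, Rapgef4 and Wscd2), or a probe of a different, protein-coding gene that overlaps a noncoding one (Kcnq1, Rora and Ctnna2). Of 7 such probes 0 were 1.5-fold lower in both diets, which in so few probes is near the 0.51% of all genes. The 7 probes had a median difference of -0.03 in control and 0.05 in bezafibrate. Most were far brighter than the 82 genes. Their mean signals ran from 92.6 units for Kcnq1 to 15075 for Wscd2, with 2652.5 for Tnik, 3882.5 for Tns1 and 14300 for Ctnna2. The Wscd2 probe was itself that of an AK clone and stood at 0.11 and 0.24, beside a RefSeq messenger RNA probe that was chosen. Tns1 was at -0.14 and 0.05, against -1.07 and -1.21 for the clone. Tnik, a kinase of the Wnt pathway, was at -0.03 and 0.01, against -0.87 and -0.96 for its clone C630040K21Rik. Rapgef4, a cAMP-regulated exchange factor also called Epac2, was at -0.35 and -0.15, against -1.79 and -0.87 for its clone 6330581N18Rik. Of the overlapping genes, Ctnna2, the neuronal alpha-catenin, was at 0.24 and 0.13, against -1.25 and -0.72 for 6330415B21Rik. Rora, a nuclear receptor of the clock, was at -0.37 and -0.33, against -1.25 and -0.76 for 9530091C08Rik. The probes of the 82 genes had been chosen for a low value and the other probes had not, so the gaps between them are a description and carry no weight as a comparison.

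**Figure D4:**
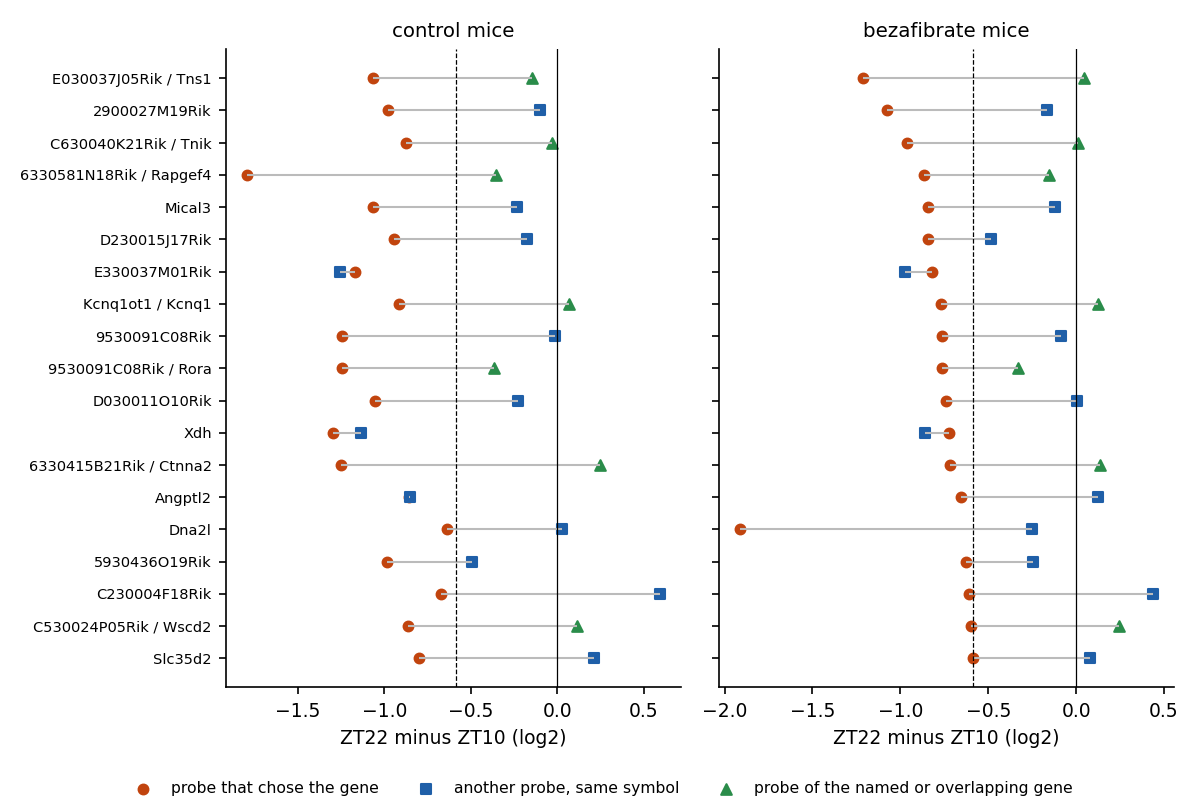
For each gene or clone among the 82 that has a further probe, or whose host or overlapping gene has one, the log2 difference ZT22 minus ZT10 of the probe used and of the other probe, in control and in bezafibrate, with a line at 1.5-fold lower. The other probes of E330037M01Rik and Xdh lie past the line in both diets, and the rest lie between it and 0.60 in at least 1 diet.

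Without regard to their values, the probes could be compared for every gene that had both an AK clone probe and a RefSeq messenger RNA probe above background. Of 1388 such genes, 40 were lower in both diets by the clone probe, 0 by the messenger RNA probe and 0 by each. In the 510 with a clone probe under 100 units, the median difference of the clone probes was -0.13 in control and -0.10 in bezafibrate. That of their messenger RNA probes was 0.03 and 0.03, and 32 of these genes were lower by the clone probe. In the 878 with a clone probe of 100 units or more, the clone medians were -0.002 in control and 0.013 in bezafibrate. The messenger RNA medians were 0.007 and -0.001 there, and 8 genes were lower by the clone probe. The gap was thus seen where the clone probe was dim, and the messenger RNA probes were not matched to it in brightness.

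The long noncoding RNA with the best known function among the 82 genes was Kcnq1ot1 (NR_001461), the antisense RNA of the imprinted Kcnq1 domain, which is made from the paternal chromosome and silences neighbouring genes there. It read 328 units in control at ZT10, 174 in control at ZT22, 354 in bezafibrate at ZT10 and 177 in bezafibrate at ZT22. The pools split by time and hardly by diet, with log2 differences of -0.91 ± 0.21 in control and -0.77 ± 0.21 in bezafibrate. Kcnq1 itself, the potassium channel gene in which Kcnq1ot1 starts, was at 0.06 and 0.12. The promoter of Kcnq1ot1 is printed because this was the only long noncoding RNA among the 82 genes whose probe was designed on the RefSeq transcript. The 250 bases before its start (chr7:143296548-143296797, minus strand, GRCm38.p6, from RefSeq) are given 5′ to 3′, with the CCAAT box and the short cAMP response element TGACG, on either strand, in capitals:
Kcnq1ot1: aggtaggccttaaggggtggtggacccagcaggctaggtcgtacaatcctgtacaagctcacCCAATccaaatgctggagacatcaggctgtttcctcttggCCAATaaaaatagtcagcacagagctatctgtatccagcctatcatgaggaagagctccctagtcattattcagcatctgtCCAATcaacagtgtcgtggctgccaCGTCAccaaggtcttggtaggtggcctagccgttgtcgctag

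Of 12 long noncoding RNAs above background in a list made after the values were seen, Kcnq1ot1 alone was among the 82 genes, and the list's median difference was 0.07 in control and 0.00 in bezafibrate. Malat1, a nuclear speckle RNA, was at 0.06 and -0.07. Neat1, the scaffold of paraspeckles, was at 0.36 and 0.27. Meg3, an imprinted noncoding RNA, was at -0.26 and -0.19. These were far brighter than the 82 genes, with mean signals of 3485, 3258 and 21450 units, and none of them was 1.5-fold lower at ZT22 in either diet. The other named noncoding members, 9530091C08Rik, 6330415B21Rik, D030028A08Rik and Cdr1os, carried probes of AK clones.

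The brightest of the 82 genes was Cdh15, the gene of M-cadherin, a calcium-dependent adhesion protein of muscle and of cerebellar granule cells. It read 655 units in control at ZT10, 329 in control at ZT22, 730 in bezafibrate at ZT10 and 407 in bezafibrate at ZT22, through a RefSeq messenger RNA probe (NM_007662). Its differences were -0.99 ± 0.20 in control and -0.61 ± 0.20 in bezafibrate. Its promoter was the only one among those matched that held the E-box CACGTG, the site that CLOCK and BMAL1 bind. The 250 bases before the start (chr8:122848124-122848373, plus strand, GRCm38.p6, from RefSeq) follow, 5′ to 3′, with that hexamer in capitals:
Cdh15: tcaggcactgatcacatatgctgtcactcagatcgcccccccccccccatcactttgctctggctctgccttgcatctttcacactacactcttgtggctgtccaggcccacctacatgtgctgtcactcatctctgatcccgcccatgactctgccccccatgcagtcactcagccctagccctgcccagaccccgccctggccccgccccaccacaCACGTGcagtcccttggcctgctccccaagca

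Only Cdh15 and the clone 5330430C04Rik (AK019921) had a mean signal over 300 units. That clone read 372, 191, 460 and 208 units in the order control ZT10, control ZT22, bezafibrate ZT10 and bezafibrate ZT22, with differences of -0.96 and -0.91. The clone 9530083O12Rik read 315, 123, 324 and 151 units and differences of -1.36 and -0.87. Among the 10 brightest were also 9530091C08Rik (344, 145, 321 and 161 units), 6330415B21Rik (328, 138, 308 and 159 units) and C130021I20 (252, 151, 254 and 137 units). In all of these, each ZT10 pool read more than each ZT22 pool, an order that the choice of the genes all but fixed. The time differences were larger than the differences between the diets at the same time.

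Myh11, the smooth muscle myosin heavy chain, read 296 units in control at ZT10, 178 in control at ZT22, 289 in bezafibrate at ZT10 and 145 in bezafibrate at ZT22. Its differences were -0.73 ± 0.21 and -0.76 ± 0.21, nearly the same in both diets. It was the only one of 16 markers of vascular smooth muscle and endothelium among the 82 genes, and the medians of that list were -0.02 in control and -0.02 in bezafibrate. The other contractile genes of smooth muscle did not share its pattern. Acta2, smooth muscle actin, was at -0.12 and -0.09. Tagln (transgelin) was at 0.16 and 0.63, and Cnn1 (calponin) at 0.19 and -0.36. Cldn5, the tight junction protein of brain endothelium, was higher at ZT22, at 1.12 and 0.67.

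Prss41, a membrane-anchored serine protease listed as 4931440B09Rik, read 278 units in control at ZT10, 164 in control at ZT22, 298 in bezafibrate at ZT10 and 97.2 in bezafibrate at ZT22. Its difference was -0.76 ± 0.21 in control and -1.38 ± 0.21 in bezafibrate, and the lowest reading was that of the bezafibrate pool at ZT22. Pou5f2, a POU domain transcription factor of the testis listed as 1700013G10Rik, read 267, 162, 249 and 127 units in the same order, with differences of -0.72 and -0.74. Its probe was that of a clone.

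Cxcl10, a chemokine that interferon induces and that draws T cells, read 108 units in control at ZT10, 57.4 in control at ZT22, 209 in bezafibrate at ZT10 and 50.7 in bezafibrate at ZT22. The bezafibrate pool at ZT10 stood apart, and the ZT22 pools were nearly alike, so that the difference was -0.91 ± 0.23 in control and -1.81 ± 0.22 in bezafibrate. None of 18 interferon-induced genes of a list was among the 82, and the medians of the list were -0.23 and 0.01. Its member Ifit3 came nearest, at -0.94 in control and -0.53 in bezafibrate. The 250 bases before the start of Cxcl10 (chr5:92348890-92349139, minus strand, GRCm38.p6, from RefSeq) hold an interferon-stimulated response element (GAAA, any 2 bases, GAAA), a motif searched after the values were seen, and a CCAAT box, both in capitals, 5′ to 3′:
Cxcl10: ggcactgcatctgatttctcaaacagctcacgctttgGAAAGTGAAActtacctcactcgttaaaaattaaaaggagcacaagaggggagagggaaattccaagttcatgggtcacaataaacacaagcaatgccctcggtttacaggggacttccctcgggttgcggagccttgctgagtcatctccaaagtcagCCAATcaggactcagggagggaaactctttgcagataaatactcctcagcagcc

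Lefty1, a secreted inhibitor of Nodal signalling, read 95, 60.8, 129 and 39 units in the order control ZT10, control ZT22, bezafibrate ZT10 and bezafibrate ZT22, with differences of -0.64 ± 0.21 and -1.49 ± 0.22. Jaml, a junctional adhesion molecule of leukocytes listed as Gm638, was at -0.61 and -0.59, the value nearest to the threshold. Rab25, a small GTPase of epithelial recycling endosomes, read 27.2, 15.5, 70.8 and 17.4 units, with differences of -0.81 ± 0.35 and -1.79 ± 0.29. As for Cxcl10, the bezafibrate pool at ZT10 stood above the other 3 pools for both Lefty1 and Rab25.

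Xdh, xanthine dehydrogenase, which makes uric acid from purines, read 227 units in control at ZT10, 92.5 in control at ZT22, 243 in bezafibrate at ZT10 and 125 in bezafibrate at ZT22, with differences of -1.30 ± 0.21 and -0.73 ± 0.21. Its further probe, on the same accession, was also lower in both diets, as given above, and no other gene of the 82 with a RefSeq messenger RNA probe had a further probe above background under its name. Perm1, a regulator of muscle mitochondria listed as 2310042D19Rik, read 169, 56.6, 167 and 90.9 units in the same order. Its ZT10 pools were alike, and its differences were -1.58 ± 0.21 in control and -0.64 ± 0.21 in bezafibrate. Cyp3a13, a cytochrome P450, read 36.4, 24.1, 30.7 and 16 units, with differences of -0.59 and -0.71. Of 23 genes of lipid droplets, lipases and fatty acid oxidation 0 were among the 82.

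The remaining messenger RNA members were dim. Cdh23, a cadherin of hair cell tip links, read 49.6, 24, 47.5 and 26 units in the order control ZT10, control ZT22, bezafibrate ZT10 and bezafibrate ZT22, with differences of -1.05 and -0.64. Padi3, an enzyme that turns arginine into citrulline in proteins, read 47.7, 29.8, 62.0 and 33.4 units, with differences of -0.68 and -0.66. Wscd2, listed as C530024P05Rik, was at -0.87 and -0.60 through a probe with a mean signal of 63.8 units. A second sequence of the gene, at 15075 units, was at 0.11 and 0.24, so the gene's brighter probe was not lower. The odorant receptor genes Olfr1364 and Olfr1339 were at -0.76 and -0.94, and at -1.32 and -0.62. Rfx3, a transcription factor of ciliated cells, was read through a clone and was at -0.73 and -0.87. None of 13 markers of ependymal and motile cilia was among the 82, and the medians of that list were 0.24 in control and 0.20 in bezafibrate.

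Just inside the 1.5-fold threshold lay Jaml, Slc35d2 (-0.80 in control and -0.59 in bezafibrate), 2010003D24Rik (-0.59 and -0.61), Cyp3a13 and Wscd2. Just outside lay A330076H08Rik (-0.58 and -0.63), Scap1 (now Skap1, an adaptor of T cell adhesion, -1.76 and -0.58), Cthrc1 (a secreted collagen-triple-helix protein, -0.72 and -0.58), Per3 (-0.63 and -0.58) and 2810421E14Rik (-0.83 and -0.58). The clock gene Per3 read 191, 123, 192 and 109 units in the order control ZT10, control ZT22, bezafibrate ZT10 and bezafibrate ZT22. In the diet nearer to the threshold, the genes on both sides of it thus differed by less than the scanner error, which was at least 0.20.

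None of 23 clock genes and direct clock outputs was among the 82, which are 0.51% of all genes. In control 4 of the 23 were 1.5-fold lower at ZT22, against 1.92% of all genes, and in bezafibrate 0, against 1.47%. The list's median difference was -0.16 in control and -0.17 in bezafibrate, against 0.03 and 0.04 over all genes. Dbp, a clock output factor, read 38600 units in control at ZT10, 16100 in control at ZT22, 33100 in bezafibrate at ZT10 and 19500 in bezafibrate at ZT22. Its difference was -1.26 in control and -0.53 in bezafibrate, so it missed the threshold in bezafibrate alone. Nr1d1, the repressor REV-ERB alpha, was at -0.90 and -0.27. Per1 was at -0.45 and -0.31, and Per2 at -0.45 and -0.39. Dbp, Nr1d1, Per1 and Per2 were thus also lower at ZT22 in both diets, but by less than 1.5-fold in at least 1 of them. Of the 23 genes, 13 were lower in both diets by any amount, against 4034 of all 16092 genes. Others were higher in both, among them Arntl (0.49 in control and 0.34 in bezafibrate), Clock (0.29 and 0.26) and Nfil3 (0.54 and 0.30).

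Across 24 lists of clock, stress, peptide, metabolic and cell type genes, Myh11 was the only one of the 82 genes to appear. None of 26 heat shock chaperones was among them, and the medians of that list were 0.21 in control and 0.20 in bezafibrate. None of 17 glucocorticoid-responsive genes was among them, with medians of -0.28 and -0.09. None of 14 feeding neuropeptides and none of 15 other hypothalamic peptides was among them either. The 82 are 0.51% of all genes, so 0 in a list this short is near the share over all genes. The same holds for the lists given above, and nothing is read from these zeros. Sgk1 of the glucocorticoid list (-1.15 in control and -0.58 in bezafibrate) and the clock gene Per3 (-0.63 and -0.58) missed the threshold in bezafibrate alone. They missed it by less than the scanner error. The lists were counted with the main scaling only, and genes this near the threshold can change sides with another scaling. The lists hold genes named for their function, and most of the 82 are clones with no such name.

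A RefSeq promoter could be matched to 27 of the 82 genes, for 28 promoters of 250 bases before to 50 after the start, and the motifs were counted on both strands. Of the 27 genes, 17 were matched by accession or by their own symbol. The others were matched through an older name. Their promoter is that of the gene to which RefSeq now gives that name, and it may not be that of the sequence the probe was designed on. The E-box CACGTG was in 1 of the 28 (3.57%), against 7.15% of 32851 promoters of the mouse. The variant CACGTT was in 2 (7.14%), those of Rab25 and Potegl, against 4.68%. The element TAGGTCA of the ROR and REV-ERB receptors was in 1 (3.57%), against 2.61%, and the D-boxes TTATGTAA and TTACGTAA were in 0, against 0.94% and 0.12%. The cAMP response element TGACGTCA was in 1, that of Rab25, against 1.79%, and its short form TGACG, which the long form holds, in 5 (17.86%), against 20.81%. The CCAAT box was in 10 (35.71%), against 37.41%, and the TATA box TATAAA in 1 (3.57%), against 13.62%. The interferon-stimulated response element, GAAA, any 2 bases and GAAA, was in 2 (7.14%), those of Cxcl10 and Jaml, against 3.44%. With 28 promoters, a difference of a single promoter moves a share by 3.57 percentage points, and most clones have no promoter here.

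The diets were compared at each time within these 82 genes, with the reserve that the same arrays chose them. The median log2 difference, bezafibrate minus control, was 0.04 at ZT10 and 0.27 at ZT22, against 0.01 and 0.01 over all genes. At ZT22, 66 of the 82 genes were higher in bezafibrate, and at ZT10 51 were, where 52.5% of all genes were higher at each time. For the 59 AK clone members the medians were 0.04 and 0.30, and for the 16 messenger RNA members -0.06 and 0.02. A smaller lean at ZT22 was also seen in AK clones at large. Of all genes read through an AK clone, 53.5% were higher in bezafibrate at ZT10 and 58.6% at ZT22. Between 30 and 100 units, the ZT22 median was 0.15 for unnamed AK clone probes, 0.06 for named ones and -0.03 for named RefSeq messenger RNA probes. The time difference was the larger one in control for 63 of the 82, a count of the values that chose the genes, from which nothing is read. In the authors' deposited table, whose probes had a median log2 ratio of -0.08 at ZT10 and -0.06 at ZT22, 31 of the 82 ratios lay above 0 at ZT10 and 61 at ZT22, so in that table fewer of the 82 were higher than lower at ZT10. By size, 4 of the 82 (4.88%) were 1.5-fold higher in bezafibrate at ZT10, against 0.864% of all genes, and 3 (3.66%) were lower, against 1.34%. At ZT22, 8 (9.76%) were higher, against 1.22% of all genes, and 2 (2.44%) were lower, against 1.67%.

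Single genes went further. Dna2l read 43.5 units in control at ZT10, 28.0 in control at ZT22, 163 in bezafibrate at ZT10 and 36.8 in bezafibrate at ZT22, so the bezafibrate pool at ZT10 stood apart by 1.85 ± 0.22 and that at ZT22 by 0.57 ± 0.27. These values are those of its clone probe, with time differences of -0.64 in control and -1.91 in bezafibrate. Its messenger RNA probe, at 0.03 and -0.25, did not show that fall in bezafibrate. Rab25 was 1.32 higher in bezafibrate at ZT10 and 0.34 higher at ZT22, and the clone 4932442A14Rik 0.97 and 0.52 higher. Gm994 read 125, 32.2, 161 and 70.6 units in the order control ZT10, control ZT22, bezafibrate ZT10 and bezafibrate ZT22, and was 0.31 higher in bezafibrate at ZT10 and 1.31 higher at ZT22. Prdm11, a PR domain protein listed as 8030443D09Rik, was 0.39 and 0.60 higher. Olfr1364 read 83.0, 49.0, 36.3 and 16.1 units, with a diet difference of -1.25 at ZT10 and -1.43 at ZT22, and LOC382695 was at -0.80 and -0.74. These 2 were the only genes of the 82 in which a ZT22 pool, that of control, was above a ZT10 pool, that of bezafibrate, on the scaled signal.

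With the time of day as a term, limma's moderated test of the diet effect over all 16092 genes called 0 genes at an adjusted p of 0.05, and so 0 of the 82. This fit had 1 residual degree of freedom among 4 pools. Its residual for a gene was the gap between the time differences of both diets, and those differences chose the 82 genes. That residual holds no spread between pools of the same group, so nothing is read from counts of the 82 by this test. For Olfr1364, lower in bezafibrate at both times, the averaged log2 difference was -1.34 with an adjusted p of 0.78 by limma.

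**Figure D5:**
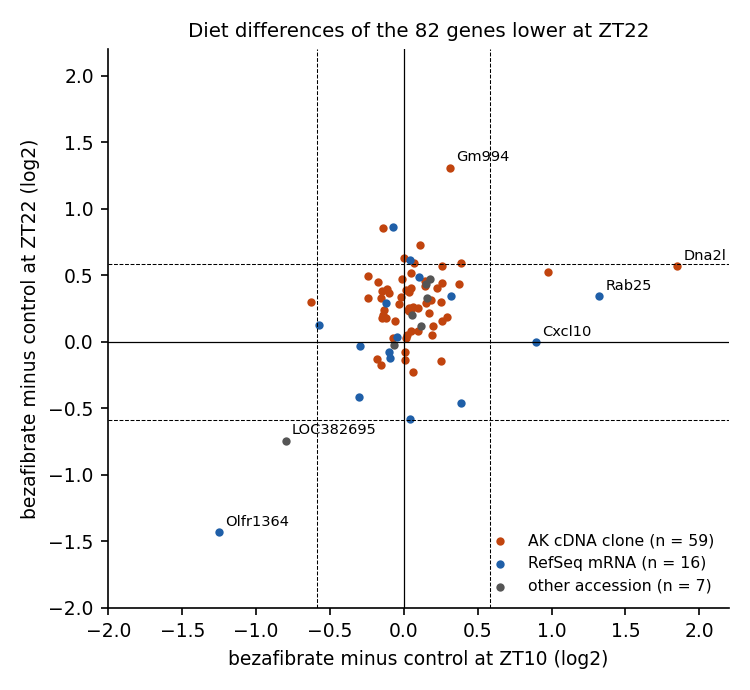
The log2 difference bezafibrate minus control of each of the 82 genes at ZT10 on the horizontal axis and at ZT22 on the vertical axis, in log2 units, marked by the kind of probe. Most points lie above 0 on the vertical axis, 66 of 82. Dna2l, read through a clone probe, stands at 1.85 at ZT10, and Olfr1364 at -1.25 and -1.43.

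The count of 82 was smaller with other treatments of background. When the signal was taken as the spot's median with the normexp correction and an offset of 50 units, 3 genes were 1.5-fold lower in both diets, all 3 AK clones among the 82, and the median difference of the 82 was -0.50 in control and -0.33 in bezafibrate. Without that offset the same correction gave 54 genes, 49 of them among the 82, with medians of -0.82 and -0.70. With the offset alone added to the processed signal there were 6 genes, with medians of -0.55 and -0.38. All 82 kept a negative difference in both diets in each of these settings. That sign was all but fixed beforehand, because the same arrays chose the genes and an offset shrinks a difference without turning it.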

How the data were processed

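Hypothalamus RNA of 4 pools, grouped by the labels, was labelled (400 ng) and read on 4 one-colour arrays. Per the file headers, the authors extracted spots with Feature Extraction 9.5.1.1. The value used from the deposited files was their processed intensity, already corrected for background and not scaled between arrays. The deposited table holds the ratio of bezafibrate over control, per the labels, and was an alternative only (r of 0.988 and 0.990 with the ratio of signals across spots). Its median log2 difference from that ratio was -0.14 at ZT10 and 0.10 at ZT22.

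The deposited intensity was taken to log2, less the 75th percentile of each array over features other than controls. Outlier spots (73 to 142 per array) and controls were left out, and spots of a probe were averaged (41171 probes). A gene was its brightest probe, marked well above background on all 4 arrays, and 2 genes that met the values are left out by the rule and not reported here. No spot was saturated. The number of arrays, 1 per group, limits the precision, so no test of time was made and errors are those of the scanner software. The diet effect was fitted with limma 3.58.1 (R 4.3.3), with time as a second term, and p-values were adjusted by Benjamini-Hochberg over all genes. It was tested on simulated data, as were the counts.

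The genes and lists were chosen with earlier results of these data known. Named were the 10 genes with the lowest value of the higher of both differences, the 10 brightest, the 5 nearest to the threshold on each side, members of lists, those with further probes, and the 5 highest and 5 lowest by mean diet difference. Cxcl10, Lefty1, Perm1, Padi3, Cdh23, Rfx3, the hosts of clones, the list genes outside the 82 and the list of long noncoding RNAs were chosen after their values were seen. Names, neighbours and promoters came from RefSeq tables of GRCm38.p6. Alternatives were other scalings, normexp, brightness filters, a 2-fold threshold, probe means and updated names.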

Additional observations from a re-analysis of the deposited data

How the results depend on the processing

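No paired analysis was possible because each group held 1 pool and the labels give no replicate numbers. The number of genes lower in both diets, 82, was 3 with normexp, 23 where genes averaged 100 units or more, 2 where they averaged 300 or more and 8 at 2-fold. The share with an AK clone probe, 72.0%, was then 100%, 52.17%, 50% and 100%, and it was 81.82% when arrays were scaled to AK clone probes alone. That last scaling moved the median time difference of all genes from 0.03 to 0.17 in control and from 0.04 to 0.16 in bezafibrate and left 55 genes. With normexp the median time difference of the 82 genes was -0.50 in control and -0.33 in bezafibrate. An offset added to dim signals brings their ratios towards 1 by its construction. Without the offset of 50 units normexp gave 54 genes, and with the offset alone the processed signal gave 6, with medians of -0.55 in control and -0.38 in bezafibrate. The number was 92 with median scaling, 100 with quantile normalization, 73 with the mean over a gene's probes, 79 with updated names, 90 without outlier spots in the percentile and 93 with RefSeq messenger RNA probes as the base. The last 2, the AK clone scaling and the settings that part normexp from its offset were chosen after seeing the data. Of the 82 genes, 82, 81, 3 and 72 stayed past the threshold in both diets under median scaling, quantile normalization, normexp and the probe mean. All 82 stayed negative in both diets under these 4 and with normexp and its offset apart, a sign that their choice on the same arrays had all but fixed. In the authors' deposited table the median diet difference of the 82 was -0.05 at ZT10 and 0.20 at ZT22. At signals under 100 units the scanner error limits what these arrays can show, and with 1 pool per group no leaving-out of a replicate was possible.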
